A study of Bos taurus with 12 samples.

Results

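The antioxidant enzymes examined here were the superoxide dismutases SOD1 and SOD2 and catalase, CAT. They were taken by gene name from the deposited count table, and each name matched 1 of its 27429 genes: SOD1 is ENSBTAG00000018854, SOD2 is ENSBTAG00000006523 and CAT is ENSBTAG00000020980. All 3 passed the minimum mean count of 10 reads, as did 11990 genes in all. RNA came from jugular blood of 12 Holstein cows, all female, sampled on day 7 after calving, 1 library per cow. The 6 supplemented cows had received trace elements by injection, which the labels do not name further, and the 6 control cows are labelled only as control. The labels call the material white blood cells, while the protocol describes blood kept in a preservative and depleted of hemoglobin RNA. Cows are numbered 1 to 6 within each group, and the numbers pair nothing across groups. The libraries held from 6778640 to 16851541 counts.

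Superoxide dismutases turn superoxide into hydrogen peroxide and oxygen, and catalase splits hydrogen peroxide into water and oxygen. SOD1 carries copper and zinc and works mainly in the cytosol. SOD2 carries manganese and works in mitochondria, and inflammatory signals such as tumour necrosis factor and interleukin 1 induce its gene through NF-kB. CAT is a heme enzyme of peroxisomes and is abundant in red cells. In neutrophils, superoxide made by the NADPH oxidase is part of microbial killing.

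The white blood cell label was checked against marker genes. PTPRC, the general leukocyte marker CD45, lay between 1410 and 2419 CPM in supplemented cows and between 1317 and 1549 CPM in control cows, where CPM is the read count scaled to a common library size. The 4 leukocyte markers, PTPRC, CD53, CORO1A and LCP1, summed to 17941 CPM in supplemented cow 6 and to between 4130 and 5608 CPM elsewhere. The 11 erythroid markers found summed to between 23.8 and 406 CPM in supplemented cows and between 20.2 and 325 CPM in control cows. Among them, the hemoglobin gene HBB lay between 5.41 and 239 CPM in supplemented cows and between 2.22 and 204 CPM in control cows. CA1, on the same list, was at 0 in all 12 libraries. Supplemented cow 6 stood apart from the other 11 libraries: its 16 neutrophil markers summed to 107859 CPM, against 633 to 14370 CPM elsewhere. Its B cell markers were the lowest, at 879 CPM, but did not set it apart. Supplemented cow 2 was close, with a mean log2 CPM of these markers of 5.73 against 5.44 in supplemented cow 6. Values that supplemented cow 6 sets are therefore also given without it. In blood RNA, fewer cells of a type and less RNA per cell cannot be told apart.

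SOD1 was the steady dismutase. Supplemented cows 1 to 6 had 152, 159, 170, 119, 137 and 93.4 CPM, against 125, 154, 118, 94.2, 181 and 132 CPM in control cows 1 to 6. The groups overlapped nearly completely, with the lowest value in supplemented cow 6 and the highest in control cow 5. Its mean and SD over 6 cows were 138 ± 28.3 CPM with supplementation and 134 ± 30.0 CPM without it. The log2 fold change, supplemented over control, was 0.04 with a standard error of 0.18, a 95% interval of -0.35 to 0.44 and an adjusted p of 0.999 in edgeR's quasi-likelihood test.

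SOD2 varied far more. Supplemented cows 1 to 6 had 82.6, 277, 35.7, 46.9, 144 and 4926 CPM, against 119, 45.2, 61.2, 292, 346 and 42.7 CPM in control cows 1 to 6. Supplemented cow 6 was the highest of the 12, with 59508 counts, and supplemented cow 3 was the lowest. The other 5 supplemented cows lay within or below the control range, and the group medians were 113 CPM in supplemented cows and 90.0 CPM in control cows. The log2 fold change was 2.60 with a standard error of 1.24, a 95% interval of -0.09 to 5.30 and an adjusted p of 0.999 in edgeR. Without supplemented cow 6 it was -0.36, so 1 library set both its size and its direction. The neutrophil markers moved with it in that library, and their part in the value was not tested.

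CAT was as steady as SOD1. Supplemented cows 1 to 6 had 82.1, 69.0, 95.2, 91.9, 61.6 and 54.0 CPM, against 62.4, 88.5, 73.7, 51.8, 63.5 and 73.3 CPM in control cows 1 to 6. Supplemented cows 3 and 4 lay above every control cow, and supplemented cow 6 was near the bottom of both groups. The CAT mean and SD over 6 cows were 75.6 ± 16.7 CPM with supplementation and 68.9 ± 12.6 CPM without it. Its log2 fold change, supplemented over control, was 0.13 with a standard error of 0.17, a 95% interval of -0.24 to 0.51 and an adjusted p of 0.999 in edgeR.

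**Figure D1:**
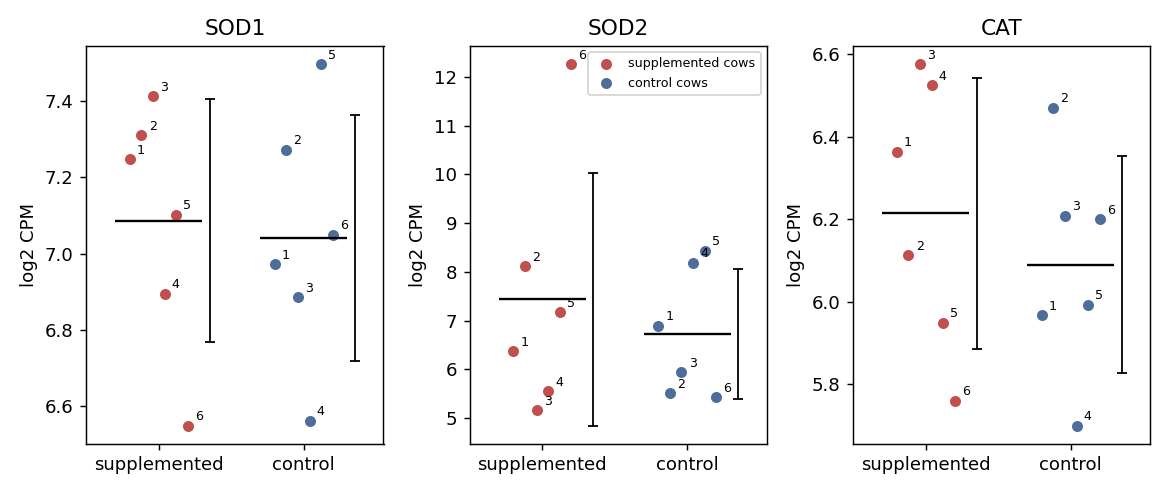
Log2 CPM of SOD1, SOD2 and CAT in each of the 6 supplemented cows (left of each panel) and 6 control cows (right), numbered by cow; lines are means and bars are SD, and each panel has its own axis. The groups overlap for all 3 genes, and supplemented cow 6 is far above the other cows for SOD2.

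None of the 3 genes passed an adjusted p of 0.05, in a comparison where edgeR called 0% of the 11990 genes tested. At an unadjusted p under 0.05 edgeR had 191 genes, which is 1.59%, and none of the 3 was among them: their unadjusted p-values were 0.814 for SOD1, 0.0571 for SOD2 and 0.447 for CAT. DESeq2 called 2 genes and limma-voom called 0, and neither called SOD1 or CAT; DESeq2 gave no adjusted p for SOD2, whose log2 fold change there was 2.65. The authors' deposited table gives SOD2 a log2 fold change of 2.66, an unadjusted p of 0.0203 and an adjusted p of 0.9996. Limma-voom gave SOD2 a smaller log2 fold change of 0.69. The libraries carry 1 of 2 first index sequences, and within the larger set, of 5 supplemented and 3 control cows, the log2 fold changes were 0.03 for SOD1, 2.17 for SOD2 and 0.29 for CAT. That set holds supplemented cow 6, and the SOD2 value there had a standard error of 1.81. The comparison within the set was not planned.

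The spread over cows set SOD2 apart from SOD1 and CAT as a description. The SD of log2 CPM over the 12 cows was 2.002 for SOD2, larger than that of 98.8% of the genes tested. SOD1 had an SD of 0.31 and CAT of 0.29, both under the median of 0.44 over all genes. Among genes of similar mean CPM, 42.4% had a smaller SD than SOD1 and 41.1% a smaller SD than CAT. These shares were 50.5% and 51.2% without supplemented cow 6, so the spread of both was ordinary for their abundance. Without supplemented cow 6 the SD of SOD2 was 1.22, still above that of 93.8% of genes. The highest SOD2 value was 138 times the lowest over all 12 cows and 9.70 times the lowest without that cow, against 1.93 times for SOD1 and 1.84 times for CAT. These ratios depend on the scaling, whose factor was 0.717 in supplemented cow 6 and 0.946 to 1.09 elsewhere. As a share of raw counts, SOD1 was 0.00669% in supplemented cow 6 and 0.00985% in control cow 4, the next lowest. CAT was 0.00387% and 0.00541% in the same cows, again the lowest and next lowest.

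Cows with more SOD2 RNA had less CAT RNA. Pearson's r of log2 CPM was -0.77 over the 12 cows (permutation p = 0.000910, adjusted over the 3 pairs of genes 0.00273), and Spearman's rho was -0.83 (permutation p = 0.00157, adjusted 0.00471). The relation was seen in each group, with r of -0.88 in the 6 supplemented cows (exact permutation p = 0.00556) and -0.83 in the 6 control cows (exact permutation p = 0.0444). It was -0.80 in the larger index set of 8 cows (exact permutation p = 0.00759). Without the 2 cows farthest from the SOD2 median, control cow 5 and supplemented cow 6, r was -0.83 (permutation p = 0.00366). On the CPM scale, where supplemented cow 6 dominates, r was -0.45 with an adjusted permutation p of 0.163.

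**Figure D2:**
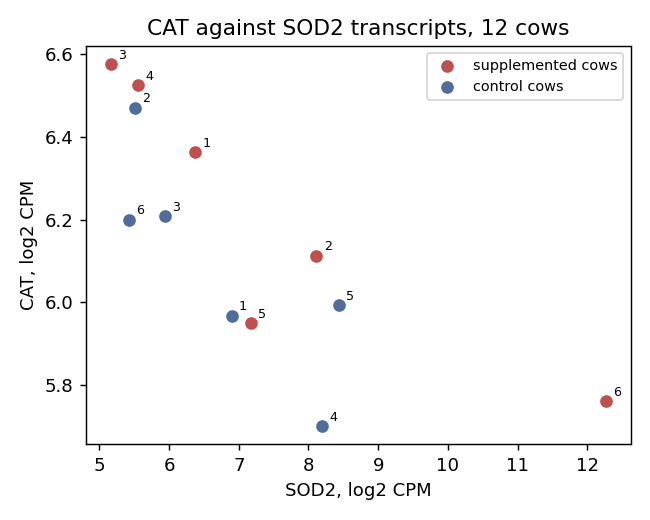
CAT against SOD2, both in log2 CPM, with 1 point per cow numbered within its group, supplemented in red and control in blue. CAT is lower in cows with more SOD2 in both groups, and supplemented cow 6 lies far to the right.

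Such a relation was not unusual for SOD2. Of the other 11989 genes tested, 15.8% had an r with SOD2 at or below that of CAT. It was less usual for CAT, since 2.23% of genes had an r with CAT at or below that of SOD2, and 0.801% without supplemented cow 6. SOD1 and CAT had an r of 0.55 (permutation p = 0.0653, adjusted 0.0980) and a rho of 0.43 (permutation p = 0.161). That r was 0.06 without control cow 4 and supplemented cow 6, the cows farthest from the SOD1 median, so it rests on them. SOD1 and SOD2 had an r of -0.45 (permutation p = 0.146) and a rho of -0.23 (permutation p = 0.467), and r was -0.03 without supplemented cow 6. Without control cow 4 and supplemented cow 6 it turned to 0.38 (permutation p = 0.280), so its direction rests on those cows.

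Neutrophil markers moved with both genes. The mean log2 CPM of the 16 markers had an r with SOD2 of 0.96 over the 12 cows and 0.91 without supplemented cow 6. With CAT its r was -0.79 and -0.78 without that cow, and with SOD1 it was -0.52 and -0.22. The summed markers lay between 1070 and 107859 CPM in supplemented cows, median 2049, and between 633 and 14370 CPM in control cows, median 1872. All 16 markers were found, and CAMP, a neutrophil granule peptide gene, was at 0 in 9 libraries. B cell markers ran the other way, with an r of -0.89 with SOD2 and 0.61 with CAT, and monocyte markers had an r of 0.80 with SOD2 and -0.62 with CAT. Platelet markers had an r of 0.64 with SOD2, 0.84 without supplemented cow 6, and -0.67 with CAT. Erythroid markers had an r of 0.55 with SOD2 and -0.68 with CAT. The 4 general leukocyte markers had an r of 0.90 with SOD2, 0.68 without supplemented cow 6. With CAT their r was -0.48, and -0.28 without that cow. The eosinophil, T cell and cytotoxic cell lists also had positive r with SOD2, from 0.57 to 0.70, and negative r with CAT, from -0.55 to -0.40, while plasma cell markers had -0.62 with SOD2, -0.12 without supplemented cow 6, and 0.47 with CAT. These are descriptions over libraries that share depth and cell make-up, and the part of cell make-up in the relation of SOD2 to CAT was not tested.

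**Figure D3:**
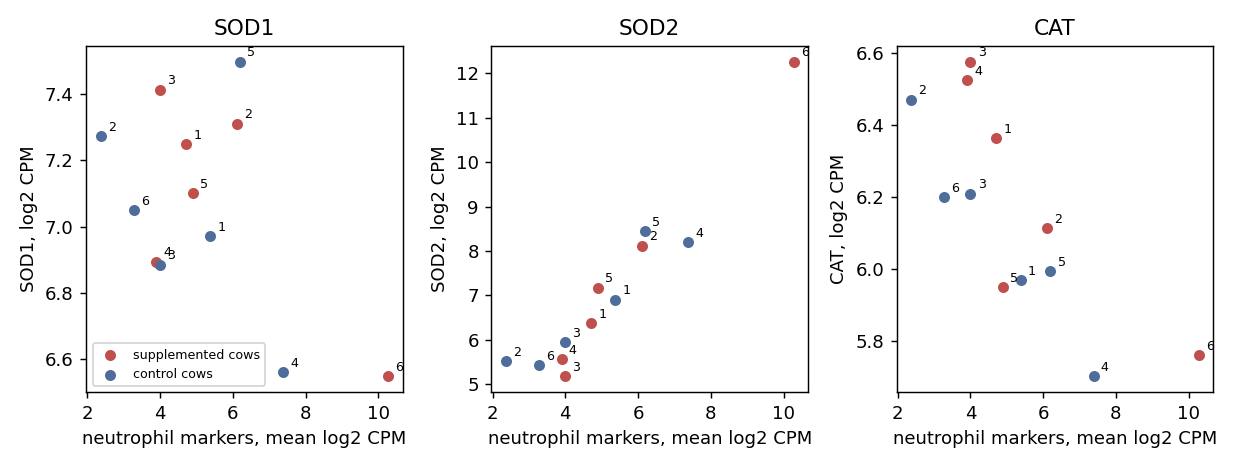
SOD1, SOD2 and CAT (log2 CPM, vertical axes) against the mean log2 CPM of 16 neutrophil markers, with 1 numbered point per cow, supplemented in red and control in blue. SOD2 is higher and CAT lower in cows with more neutrophil marker RNA, while the SOD1 points scatter.

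The genes most like each enzyme over the 12 cows were found among 9170 other named genes of at least 5 CPM, as descriptions without a test. SOD2 had the most company: 1352 genes had an r of at least 0.8 with it, against 18 for SOD1 and 240 for CAT. Its 6 nearest were CREG1, OAZ1, SARS1, TMEM164 and UVRAG, each at 0.99, and RALB at 0.98. OAZ1 is the antizyme that restrains polyamine synthesis, SARS1 charges serine transfer RNA, UVRAG acts in autophagy and RALB is a small GTPase. UVRAG lay between 36.6 and 1814 CPM in supplemented cows and between 30.0 and 319 CPM in control cows. Its r with SOD2 was 0.98 without supplemented cow 6. Lowest were POLR1B and POLR1C, subunits of RNA polymerase I, each at -0.98, and SPTBN1, a spectrin of the membrane skeleton, at -0.97.

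CAT had BLOC1S6 and SUPT16H nearest, each at 0.96. BLOC1S6 serves the making of lysosome-related organelles, and SUPT16H is a subunit of the histone chaperone FACT. ATXN7L3B followed at 0.95, THAP9 at 0.94 and CFDP2 at 0.93. Lowest were ZBTB37 at -0.96, CPEB2, which binds messenger RNA, at -0.95, and TP53INP2 at -0.92.

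SOD1 had few close genes. MPHOSPH10, of the ribosome-making machinery, led at 0.90 and was at 0.94 without supplemented cow 6. UBE2E1, a ubiquitin-conjugating enzyme, was at 0.89, SVBP and AIMP1 at 0.85, and RSL24D1, of ribosome assembly, and METTL18 at 0.84. Lowest were KIF21B, a kinesin, at -0.89, and SYTL1 and PIGT at -0.85.

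Genes that supply or work beside the enzymes were compared between the groups. CCS, the chaperone that loads copper into SOD1, had 37.7, 21.6, 36.1, 39.4, 39.4 and 22.1 CPM in supplemented cows 1 to 6, against 51.9, 57.2, 38.7, 54.5, 40.8 and 36.2 CPM in control cows 1 to 6. All 6 supplemented cows were below the control median, and 3 of them were below every control cow. The share of all genes tested that separate this far was not counted. Its log2 fold change was -0.51 with a standard error of 0.20, an unadjusted p of 0.0239 and an adjusted p of 0.999 in edgeR, so it did not pass. Without supplemented cow 6 the log2 fold change was -0.41, with an unadjusted p of 0.0510 in edgeR. The authors' deposited table gives CCS a log2 fold change of -0.50 and an unadjusted p of 0.0188. CCS did not follow SOD1 over the cows, with an r of 0.02.

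SOD3, the secreted dismutase, was under the count minimum, with at most 14 counts in supplemented cows and 10 in control cows. GPX1, a glutathione peroxidase that also removes hydrogen peroxide, had a log2 fold change of 0.24 that turned to -0.09 without supplemented cow 6, and its r with SOD2 was 0.94. PRDX2, a peroxiredoxin abundant in red cells, had a log2 fold change of -0.25, which was -0.10 without that cow, and its r with SOD2 was -0.85, or -0.58 without that cow. SLC39A8, a transporter that carries manganese and zinc, had a log2 fold change of 1.48 on 0 to 128 counts per library, and of 0.44 without that cow. NFE2L2 encodes NRF2, a regulator of antioxidant genes, and had a log2 fold change of 0.32 that was 0.02 without that cow. With all 12 cows, all 4 had an adjusted p of 0.999 in edgeR.

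None of 6 gene lists held a gene that passed in edgeR, where the background of calls was 0%. Over all genes tested the median log2 fold change was 0.0102. It was -0.00489 without supplemented cow 6 and 0.0171 without control cow 5. The share of all genes with a positive value was not counted, so the counts of positive genes below have no background. Of the 22 tested enzymes that handle superoxide and hydrogen peroxide, 15 had positive and 7 negative log2 fold changes, with a median of 0.13 against 0.01 over all genes. Among those of at least 5 CPM, the range from which highest and lowest genes are named here, the highest was GPX3, a glutathione peroxidase of plasma, at 2.08, which turned to -0.49 without supplemented cow 6, and the lowest was CCS. Of the 22, 9 were positive without that cow, and the median was -0.08. Of the 10 tested sources of superoxide, 9 were positive, with a median of 0.32; 2 were positive without that cow, and the median was -0.03. The highest, NCF1, a subunit of the NADPH oxidase, stood at 0.93 and turned to -0.37 without that cow. CYBA, a membrane subunit of that oxidase, was the lowest, at 0.12, and turned to -0.10 without it. The list's median r with SOD2 was 0.85, and 0.65 without that cow, against -0.07 and -0.11 over all genes. Of the 15 tested genes of metal supply, 10 were positive, with a median of 0.21; 6 were positive without that cow, and the median was -0.02. The highest was SLC31A2, a copper transporter, at 0.66, which turned to -0.05 without that cow, and the lowest was again CCS.

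Of the 22 tested peroxisome genes 13 were positive, with a median of 0.05; without supplemented cow 6 these were 12 and 0.08. PRDX5, a peroxiredoxin, was highest at 1.29, which turned to -0.24 without that cow, and PEX26, of peroxisomal protein import, was lowest at -0.28. The list did not follow CAT as a whole, with a median r of 0.18. Of the 27 tested genes of the NF-kB and cytokine response, 9 were positive, with a median of -0.28. Without supplemented cow 6, 4 were positive and the median was -0.66. Without control cow 5 the median turned to 0.40, so its direction rested on control cow 5. TNFAIP6, an inflammation-induced secreted protein, was highest at 2.58 and turned to -0.71 without supplemented cow 6. IL1A, which encodes interleukin 1 alpha, was lowest at -2.31 and turned to 0.85 without control cow 5. The list's median r with SOD2 was 0.56, and 0.78 without supplemented cow 6. Of the 17 tested NRF2 and FOXO regulators and targets 11 were positive, with a median of 0.06; without supplemented cow 6 the count was also 11 and the median 0.01. HMOX1, heme oxygenase 1, was highest at 0.70 and stood at 0.07 without that cow. SIRT3, a mitochondrial deacetylase, was lowest at -0.42 and stood at -0.24 without it.

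SOD activity had been measured in the same 12 cows on days 0, 4, 7 and 14. The deposited sheet states no unit, assay or material, so values are comparable only within it, and which dismutase they reflect is not stated. On day 7 the supplemented cows 1 to 6 had 0.658, 0.474, 0.555, 0.386, 0.537 and 0.524, against 0.343, 0.222, 0.731, 0.274, 0.285 and 0.599 in control cows 1 to 6. The supplemented values were closer together, and 5 of 6 lay above the control mean, but the ranges overlapped. The means were 0.522 ± 0.0901 in supplemented cows and 0.409 ± 0.206 in control cows (SD, n = 6 each; exact permutation p = 0.242, two-sided, adjusted over 20 tests 0.808).

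The other days gave no larger separation. On day 0 the means were 0.610 ± 0.196 in supplemented cows and 0.590 ± 0.277 in control cows (SD, n = 6 each; exact permutation p = 0.890). On day 4, when supplemented cows 3 and 6 had no value, they were 0.510 ± 0.171 in 4 supplemented cows and 0.602 ± 0.477 in 6 control cows (SD; exact permutation p = 0.838). On day 14 they were 0.595 ± 0.507 in supplemented cows and 0.498 ± 0.376 in control cows (SD, n = 6 each; exact permutation p = 0.716). The day 4 control mean held 1.50 in cow 1, and the day 14 supplemented mean held 1.60 in cow 2, each far above its group. The difference, supplemented minus control, was -0.0912 on day 4 and 0.0977 on day 14, and it was 0.0885 without control cow 1 and -0.103 without supplemented cow 2. Over all cows, day 7 was lower than day 0 in 8 of 12, with a mean change of -0.135 (exact permutation p = 0.0850, adjusted over 3 days 0.255).

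**Figure D4:**
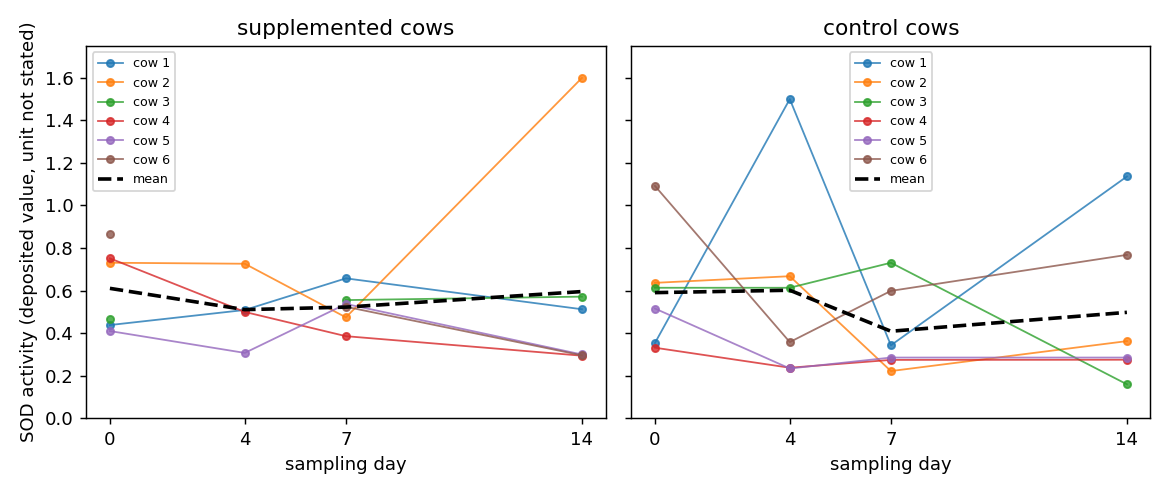
SOD activity, as deposited with no stated unit, on days 0, 4, 7 and 14 in the 6 supplemented cows (left) and 6 control cows (right); each coloured line is a cow, broken where a value is missing, and the dashed line is the group mean. Single high values, 1.60 in supplemented cow 2 on day 14 and 1.50 in control cow 1 on day 4, stand over the rest.

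No relation of a cow's activity between days passed over the 6 pairs of days, each with 10 or 12 cows. The highest r was 0.57, between days 4 and 14 in 10 cows (permutation p = 0.0967, adjusted 0.580), with a rho of 0.59. Of the 46 values 43 were distinct. Control cow 5 had the same value on days 7 and 14, control cow 3 had the same value on days 0 and 4, and control cow 3 on day 7 had the same value as supplemented cow 2 on day 0, to all digits given.

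Transcript levels on day 7 did not track SOD activity on any day at a level that passed. Of 12 relations, 3 genes by 4 days, the Pearson r lay between -0.15 for SOD2 on day 4 and 0.29 for SOD1 on day 14, and every adjusted permutation p was 0.997. For the matched day, day 7, r was -0.03 for SOD1 (rho -0.08), -0.12 for SOD2 (rho -0.32) and 0.18 for CAT (rho 0.27). The permutation p-values of those r were 0.928, 0.723 and 0.575 in the same order of genes, and those of rho were 0.803, 0.307 and 0.405. Without the 2 cows farthest from the median activity of that day, control cows 3 and 2, r was 0.21 for SOD1, -0.20 for SOD2 and 0.43 for CAT. Without supplemented cow 6 the day 7 r of SOD2 was -0.37 (permutation p = 0.250). In the larger index set SOD2 and day 4 activity had an r of -0.92 over 6 cows (exact permutation p = 0.0208, adjusted 0.250). This was the most extreme of the 12 relations within that set, which were not planned. CAT and day 4 activity had an r of 0.79 there (exact permutation p = 0.0847). Over all 10 cows with a day 4 value the r of SOD2 was -0.15 (permutation p = 0.749).

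**Figure D5:**
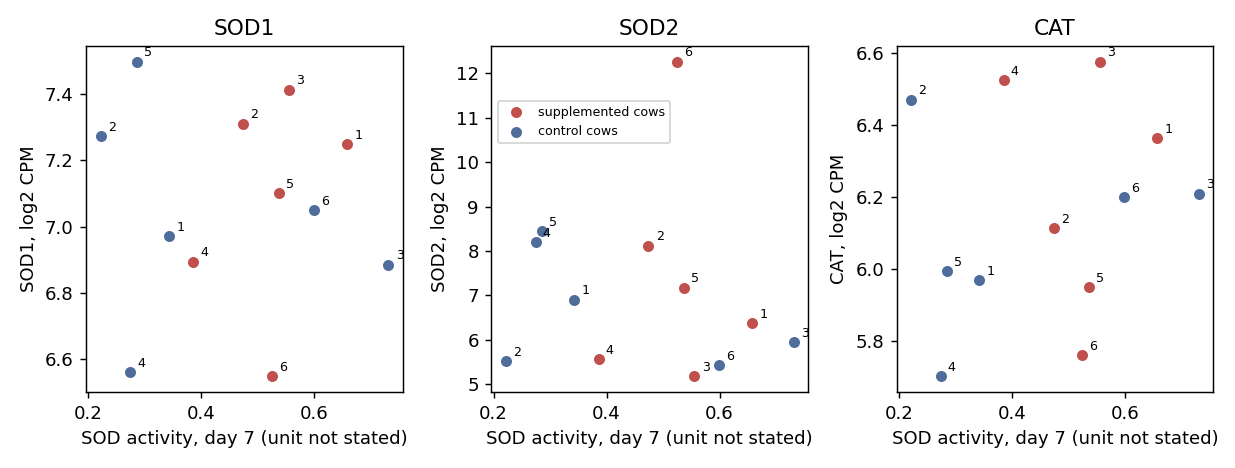
SOD1, SOD2 and CAT (log2 CPM, vertical axes) against SOD activity on day 7 (horizontal axes, unit not stated), with 1 numbered point per cow, supplemented in red and control in blue. No panel shows a clear trend, and r is -0.03, -0.12 and 0.18 for SOD1, SOD2 and CAT.

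Fitting SOD activity of each day against all genes in edgeR called 0% of genes on every day. At an unadjusted p under 0.05 it had 1.27% of genes on day 0, 1.1% on day 4, 2.02% on day 7 and 1.81% on day 14. SOD2 was among these on day 0 alone of the 4 days, with a log2 change of 1.38 per SD of activity (unadjusted p = 0.0344, adjusted p = 0.9998). Without supplemented cow 6 that change was -0.50, so the direction rested on this cow. On day 7 the change of SOD2 was 0.77 per SD, opposite in sign to its r of -0.12, and it turned to -0.63 without that cow. With all 12 cows it was also negative in limma-voom, at -0.26, and in edgeR with group as a covariate, at -0.70. None of these passed.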

How the data were processed

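Per the submitters' processing notes, reads were handled with FastQC, STAR, featureCounts and DESeq2 on the build ARS-UCD1.2; no source used here gives versions or counting options. The authors deposited raw counts per gene for 12 libraries of 150-base paired reads. The authors' table of their own comparison holds log2 fold changes, p-values and a mean signal of scaled counts, of which the fold changes and p-values are printed where named. The deposited sheets of SOD and other determinations state no unit.

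Here genes averaging 10 or more reads per library were tested with edgeR 4.0.16 (R 4.3.3; TMM scaling, robust quasi-likelihood, two-sided, Benjamini-Hochberg threshold 0.05). CPM used the counts of all genes with TMM factors, and log2 CPM a prior count of 2. Standard errors and 95% intervals follow from the F statistic. DESeq2 1.42.0, limma 3.58.1, other scalings and filters, the index sequence and leaving out cows were alternatives. Correlations used 100000 permutations, or exact ones under 10 cows. The fit was tested on simulated data. Nothing in the labels pairs cows, and each library is a separate cow.

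The named genes were the 3 enzymes; for each, the 6 named genes with the highest and the 3 with the lowest r among those of at least 5 CPM; the extremes of each list; and CCS, SOD3, GPX1, PRDX2, SLC39A8 and NFE2L2. Some genes this rule names are not reported here. The members and lists were chosen with earlier results of these data known. Tests of the relations among the 3 genes, and leaving out cows for the partner and list genes, were added after seeing the data. In RefSeq's ARS-UCD2.0 table, used for names only, 0 other genes overlap any of the 3. Whether counting used strand is not stated.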

Additional observations from a re-analysis of the deposited data

Results flagged for a closer look

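Each of 20 groups of 4 to 6 values was checked for a value whose gap to the rest was too large a share of the group's range by Dixon's test, which chance exceeds in about 1 in 20 groups. SOD2 in supplemented cow 6, at 4926 CPM, stood apart from the other supplemented cows on the CPM scale but did not pass on the log2 scale; the CPM scale was added after seeing the data. SOD activity on day 4 in control cow 1, at 1.50, and SOD activity on day 14 in supplemented cow 2, at 1.60, also stood apart from their groups. In control cow 1 SOD2 RNA on day 7 was 119 CPM, and in supplemented cow 2 it was 277 CPM.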

How the results depend on the processing

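No paired analysis was possible because the replicate numbers were given in accession order and pair no cows. Leaving out 1 cow at a time moved the log2 fold change of SOD1 between -0.0345 (without control cow 4; it was -0.0190 without supplemented cow 3) and 0.148, of SOD2 between -0.36 and 3.04 and of CAT between 0.06 and 0.22, and none passed. The count of genes called was 2 with DESeq2 and 0 under the other alternatives. Without both supplemented cow 6 and control cow 5 the value was 0.239 for SOD1 and 0.0591 for SOD2, an alternative chosen after seeing the data. Leaving out 1 cow moved the SOD activity difference between -0.0318 and 0.120 on day 0, -0.165 and 0.0885 on day 4, 0.0759 and 0.178 on day 7, and -0.103 and 0.225 on day 14; by medians it was 0.217 on day 7. On day 4 it turned to 0.0243 on the log2 scale and 0.0187 by medians. The change of day 4 from day 0 lay between -0.152 and 0.0570. For SOD1 and activity, r lay between -0.396 and 0.0875 on day 0, -0.33 and 0.22 on day 4, and -0.28 and 0.15 on day 7; it turned on day 4 to a rho of 0.0424 and to 0.00309 after centring within groups, and on day 7 to 0.0800 within the larger index set. For SOD2 the ranges were -0.41 to 0.36 on day 0, -0.386 to 0.0126 on day 4, -0.373 to -0.0362 on day 7 and -0.25 to 0.21 on day 14; day 0 turned to a rho of -0.20 and day 7 to 0.0779 on the CPM scale. For CAT they were -0.0397 to 0.363 on day 0, -0.15 to 0.64 on day 4, -0.00446 to 0.411 on day 7 and -0.11 to 0.10 on day 14, and day 14 turned to -0.0328 on the CPM scale and -0.0262 after centring. Among the 3 genes, SOD1 with SOD2 passed with library size only (-0.71) and without control cow 5 (-0.617, the lowest over cows left out; the highest was -0.0310); SOD1 with CAT passed with library size only (0.74) and ranged from 0.40 to 0.71, passing without supplemented cow 4 or control cow 5. SOD2 with CAT ranged from -0.81 to -0.75 and did not pass on the CPM scale (-0.45). The causes were not tested. The number of cows limits all of these comparisons.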

Other observations

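The same 3 genes were set against 4 other day 7 determinations, 12 relations in all, and none passed. CAT and glutathione peroxidase activity had an r of 0.61 (permutation p = 0.0312, adjusted 0.374) and a rho of 0.61 (permutation p = 0.0399, adjusted 0.239), and r was 0.27 without control cow 4 and supplemented cow 4, so it rests on those cows. SOD2 and glutathione peroxidase activity had an r of -0.42 (permutation p = 0.176) and a rho of -0.68 (permutation p = 0.0188, adjusted 0.226). That r was -0.35 without control cow 4 and supplemented cow 4 (permutation p = 0.319), and -0.65 without supplemented cow 6 (permutation p = 0.0248, unadjusted).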
